A study of Homo sapiens with 6 samples.

Results

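The non-coding snoRNA host genes of HEC-1-A cells were examined in control cells and in cells that received SMIP34. The 8 members, GAS5, SNHG1, SNHG3, SNHG5, SNHG6, SNHG7, SNHG8 and SNHG12, were taken by gene symbol. They were chosen with earlier results of these data known, so the counts of members called carry no test. All 8 were present among the 23228 genes of the count tables, and all 8 were among the 13408 genes that passed the filter on low counts. HEC-1-A is an established human endometrial adenocarcinoma line, and SMIP34 is an inhibitor of PELP1, a scaffold protein of the nucleus and nucleolus. The 3 control libraries were from cells in culture medium, which received vehicle by the study's methods, and the 3 SMIP34 libraries were from cells that received SMIP34 at 20 µM. RNA was taken after 24 h in both groups. Nothing states whether the 3 libraries of a group came from separate experiments, so the p-values measure the spread between these libraries, which may be technical. All cells were of 1 line, and each library held between 19562711 and 22014835 counts on genes. The 8 epithelial markers examined (EPCAM, CDH1, KRT8, KRT18, KRT19, PAX8, CLDN3 and CLDN4) were expressed, with means of 96.0 to 851 CPM (counts scaled to a common library total). Of the 11 markers of immune, endothelial and stromal cells, CD3E and LUM were at 0 in all libraries, none had a mean above 3.57 CPM, and the sum over the 11 was 5.01 to 6.08 CPM in control and 6.01 to 7.12 CPM in SMIP34 libraries. Some markers moved with the groups: KRT19 (log2 fold change -0.17), KRT8 (-0.12) and PAX8 (-0.07) were lower and CLDN4 (0.19) and COL1A1 (0.50, at 2.96 ± 0.218 CPM in control and 4.19 ± 0.346 in SMIP34 libraries, SD, n = 3) higher, and their part in the results was not tested.

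A snoRNA host gene carries small nucleolar RNAs in its introns. The spliced exons of a non-coding host make no known protein of their own, and for several such hosts the exonic RNA is bound by ribosomes and degraded by nonsense-mediated decay. The intronic snoRNAs are trimmed from the released introns and enter ribonucleoproteins that guide chemical modification of ribosomal RNA in the nucleolus. Box C/D snoRNAs guide ribose methylation, and box H/ACA snoRNAs guide pseudouridylation. Many hosts, like ribosomal protein genes, start transcription at a C followed by a run of pyrimidines, the 5′ terminal oligopyrimidine (TOP) tract, through which LARP1 and mTOR signalling control the translation and stability of the RNA. GAS5, the growth arrest specific transcript, is known to accumulate when translation or mTOR is blocked. These genes are therefore of interest for a compound whose target takes part in ribosome assembly.

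The starts of the genes were read from the hg19 genome to see whether the TOP label holds, and they are shown because this feature defines the group. Each line gives 20 bases before the start and 30 bases from it, 5′ to 3′ on the gene's strand, with the C that opens the run and the unbroken pyrimidines after it in capitals. A single capital marks a start that opens no such run. The start is the one shared by the most GENCODE transcripts of the gene. The 3 transcripts of SNHG3 have 3 different starts, and the one nearest to the start of the count tables is shown. For SNHG5 the start used in the count tables is given as well. The start of SNHG6 was not used here.
GAS5, chr1:173837098-173837147, minus strand: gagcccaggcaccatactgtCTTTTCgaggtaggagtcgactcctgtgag
SNHG1, chr11:62623328-62623377, minus strand: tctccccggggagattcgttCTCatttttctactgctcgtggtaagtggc
SNHG3, chr1:28832472-28832521, plus strand: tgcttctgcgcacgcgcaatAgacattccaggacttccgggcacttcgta
SNHG5, chr6:86388437-86388486, minus strand: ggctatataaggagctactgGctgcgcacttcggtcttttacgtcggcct
SNHG5 (start of the count tables), chr6:86388422-86388471, minus strand: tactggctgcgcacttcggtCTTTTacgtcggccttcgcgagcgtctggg
SNHG7, chr9:139622607-139622656, minus strand: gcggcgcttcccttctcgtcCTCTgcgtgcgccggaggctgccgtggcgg
SNHG8, chr4:119199893-119199942, plus strand: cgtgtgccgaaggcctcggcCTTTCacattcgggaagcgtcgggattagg
SNHG12, chr1:28908356-28908405, minus strand: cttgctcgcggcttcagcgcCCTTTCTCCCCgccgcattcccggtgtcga

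With a run of at least 5 pyrimidines as the criterion, 3 of the 7 starts scanned carried a TOP tract. The run was 11 bases at SNHG12, 6 at GAS5 and 5 at SNHG8. It was 4 at SNHG7 and 3 at SNHG1, and none opened at the start shown for SNHG3 or at the commonest start of SNHG5. At SNHG5 a run of 5 opened at the start that the count tables use, which 3 of its 89 GENCODE transcripts share, 15 bases downstream of the commonest one. Among the other GENCODE starts, a run of 7 opened at 1 of the 3 of SNHG3 and a run of 5 at 1 of the 26 of SNHG1, each the start of 1 transcript, and none of the 5 starts of SNHG7 opened a run over 4. Over all genes tested that had a GENCODE start, 4.03% of 11295 had such a run, against 69.0% of 84 ribosomal protein genes. So the label holds at the commonest starts of GAS5, SNHG8 and SNHG12, holds for SNHG1, SNHG3 and SNHG5 at another of their starts, and is not met at any annotated start of SNHG7. The commonest start is shared by 50 of 91 transcripts of GAS5, but by only 5 of 15 of SNHG8 and 4 of 19 of SNHG12. Annotated starts are not mapped transcription starts, and a small shift decides whether a run is seen. At GAS5, for example, the start of the count tables lies 2 bases inside the run and opens none. At the starts of the count tables the run was 1 base at SNHG8 and 3 at SNHG12, so the criterion was not met there either.

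The count tables also hold rows for the snoRNAs themselves, and 28 of these rows lay within 7 of the members on the same strand, 26 of them whole within introns. GAS5 held 10, SNHG1 held 8, SNHG12 held 4, SNHG5 and SNHG7 held 2 each, and SNHG6 and SNHG8 held 1 each. No row lay within SNHG3. The search took only rows named as snoRNAs and placed on a single chromosome and strand, so this does not show that SNHG3 carries none. The snoRNAs with the most reads in GAS5, SNHG1 and SNHG12 are shown, since they show what these introns carry. In SNORD80 and SNORD25, of the box C/D class, capitals mark the C box TGATGA within the first 20 bases and the D box CTGA within the last 15. In SNORA61, of the box H/ACA class, they mark the ACA within the last 8 bases. The same search found both boxes in 73 of 131 SNORD rows (55.7%) and the ACA in 86 of 93 SNORA rows (92.5%) of all host genes. Only the gene's own strand was searched.
SNORD80 (in GAS5), chr1:173833971-173834041, minus strand: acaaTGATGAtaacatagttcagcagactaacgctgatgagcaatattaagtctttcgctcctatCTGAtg
SNORD25 (in SNHG1), chr11:62623037-62623103, minus strand: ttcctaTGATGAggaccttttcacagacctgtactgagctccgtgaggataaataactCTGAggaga
SNORA61 (in SNHG12), chr1:28906276-28906405, minus strand: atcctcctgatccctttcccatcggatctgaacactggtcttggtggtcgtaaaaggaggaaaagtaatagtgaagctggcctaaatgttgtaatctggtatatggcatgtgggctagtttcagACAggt

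SMIP34 did not move the members as 1 block. SNHG5, SNHG6, SNHG7 and SNHG8 were lower, SNHG12 was higher, and GAS5, SNHG1 and SNHG3 did not pass the test at an adjusted p under 0.05. All changes were small, from -17.2% in SNHG8 to 26.8% in SNHG12, and none of the 8 passed an absolute log2 fold change of 0.5, as 3.31% of all genes tested did with an adjusted p under 0.05. DESeq2 called 3 members lower and 1 higher. The 4 lower members were 50.0% of the 8, where 17.2% of all genes tested were called lower. The 1 higher member was 12.5%, where 17.4% of all genes tested were called higher. The median log2 fold change of the members was -0.11, against -0.002 over all genes tested. However, 6 of the 8 are in the class of shortest exons described below. In that class the median was -0.10, with 32.8% of genes called lower and 4.1% higher. Values are SMIP34 minus control, from the quasi-likelihood test of edgeR with Benjamini-Hochberg adjustment over all 13408 genes. CPM are relative to the total of a library, so fewer copies per cell and more of all other RNA cannot be told apart.

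**Figure D1:**
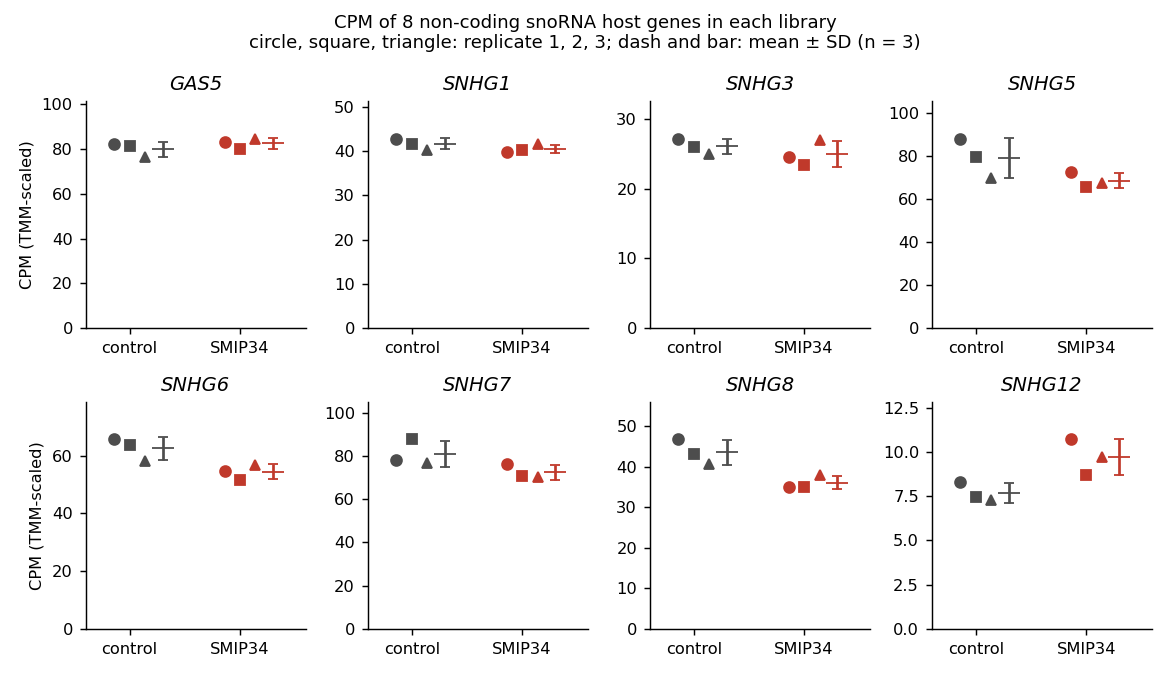
CPM (linear scale from 0) of each member in the 3 control libraries (grey) and the 3 SMIP34 libraries (red), with circle, square and triangle for replicates 1, 2 and 3 and a dash with a bar for the mean ± SD. The SMIP34 points of SNHG6, SNHG7 and SNHG8 lie below all control points, those of SNHG12 lie above them, and those of GAS5, SNHG1, SNHG3 and SNHG5 overlap with them.

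SNHG8, the host of SNORA24, had the largest decrease. It was at 46.7, 43.1 and 40.7 CPM in control replicates 1, 2 and 3 and at 35.1, 35.0 and 37.9 CPM in SMIP34 replicates 1, 2 and 3. All 3 SMIP34 libraries lay below the lowest control, and the log2 fold change was -0.27 ± 0.05 (SE, n = 3 per group; edgeR adjusted p = 0.000309). SNHG8 was called lower in all 18 alternative analyses, which include the leaving out of each library, but with exon length offsets its log2 fold change was -0.15 with an adjusted p of 0.022. The gene lies at chr4:119199917-119200978 (hg19, plus strand) and has 619 bases of exon.

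SNHG6, the host of SNORD87, was at 65.6, 63.7 and 58.2 CPM in control and at 54.7, 51.7 and 56.9 CPM in SMIP34 libraries. The groups did not overlap, although control replicate 3 and SMIP34 replicate 3 were close. The log2 fold change was -0.20 ± 0.05 (SE, n = 3 per group; edgeR adjusted p = 0.00204), a change of -12.8%. The gene lies at chr8:67834165-67837777 (hg19, minus strand) and has 472 bases of exon, the fewest of the 8 members. With offsets for exon length, described below, its log2 fold change was -0.07 with an adjusted p of 0.203.

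SNHG5, the host of SNORD50A and SNORD50B, had the widest spread among controls. It was at 88.0, 79.7 and 69.5 CPM in control and at 72.5, 65.4 and 67.5 CPM in SMIP34 libraries, so that SMIP34 replicate 1 lay above control replicate 3. The log2 fold change was -0.21 ± 0.06 (SE, n = 3 per group; edgeR adjusted p = 0.00539), a change of -13.3%. This call rests on control replicate 1, without which the log2 fold change was -0.12 and the adjusted p 0.0835. The adjusted p was 0.131 with DESeq2 and 0.211 with exon length offsets. The gene lies at chr6:86386725-86388451 (hg19, minus strand).

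SNHG7 holds SNORA43 and SNORA17, both of which overlap an annotated exon of the gene. It was at 77.9, 87.6 and 76.8 CPM in control and at 76.2, 70.5 and 70.4 CPM in SMIP34 libraries. The groups were separated only by the gap between 76.8 and 76.2 CPM. The log2 fold change was -0.16 ± 0.05 (SE, n = 3 per group; edgeR adjusted p = 0.00821), a change of -10.5%, and it was -0.10 with an adjusted p of 0.123 without control replicate 2, the highest library. SNHG7 lies at chr9:139619046-139622636 (hg19, minus strand) and has 2676 bases of exon, the most of the 8.

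SNHG12, which carries SNORA61, SNORA44, SNORA16A and SNORD99, was the only member called higher. It was at 8.29, 7.45 and 7.27 CPM in control and at 10.7, 8.69 and 9.71 CPM in SMIP34 libraries, with no overlap between the groups. The log2 fold change was 0.34 ± 0.11 (SE, n = 3 per group; edgeR adjusted p = 0.0143), a change of 26.8%. It was the least abundant member, with 151 to 235 counts per library, and its standard error was the largest of the 8. Without SMIP34 replicate 1 the log2 fold change was 0.27 with an adjusted p of 0.0963, and without control replicate 2 it was 0.32 with an adjusted p of 0.0517. The gene lies at chr1:28905050-28908366 (hg19, minus strand).

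Across the members, the SMIP34 libraries lay below all controls in 3 (SNHG6, SNHG7 and SNHG8) and above all controls in 1 (SNHG12). Over all genes tested, 21.9% lay wholly below and 22.6% wholly above. The share for higher values in the members was therefore not above that background.

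GAS5 was expressed at 82.1, 81.3 and 76.2 CPM in control and at 83.0, 79.9 and 84.6 CPM in SMIP34 libraries. The ranges overlapped, and the log2 fold change of 0.05 ± 0.04 (SE, n = 3 per group) did not pass the test (edgeR adjusted p = 0.368). With exon length offsets it was 0.17 with an adjusted p of 0.000466, and with offsets for exon length and GC content together it was 0.13 with an adjusted p of 0.00198, so that whether GAS5 counts as higher depends on this choice. The gene lies at chr1:173833039-173837125 (hg19, minus strand) and has 632 bases of exon in 12 intervals.

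SNHG1 and SNHG3 had log2 fold changes smaller than their standard errors, and their groups overlapped. SNHG1 was at 42.8, 41.7 and 40.3 CPM in control and at 39.8, 40.2 and 41.6 CPM in SMIP34 libraries (log2 fold change -0.04 ± 0.05, SE; edgeR adjusted p = 0.607). Its sign turned with exon length offsets, to 0.04, and it was not called in any alternative. SNHG3 was at 27.2, 26.0 and 25.0 CPM in control and at 24.6, 23.4 and 27.0 CPM in SMIP34 libraries (log2 fold change -0.06 ± 0.06, SE; edgeR adjusted p = 0.529), and no alternative called it either. SNHG1 lies at chr11:62619460-62623360 on the minus strand and SNHG3 at chr1:28832455-28837404 on the plus strand (both hg19).

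Some members share their locus with other genes. SNHG3 starts at the same base as RCC1, the exchange factor of the GTPase Ran, and 251 bases of exon on the same strand belong to both genes, so a read there cannot be given to 1 of them. SNHG3 and RCC1 both had whole counts in 5 of 6 libraries, although fractional counting was set. Reads in the shared bases may thus have been counted in full for both genes, and the CPM of SNHG3 may include reads of the more abundant RCC1. RCC1 had a log2 fold change of -0.03 ± 0.03 (SE; edgeR adjusted p = 0.551), with 174 to 180 CPM in control and 168 to 179 CPM in SMIP34 libraries. SNHG1 starts 124 bases from SLC3A2, the heavy chain of several amino acid transporters, which lies on the opposite strand. SLC3A2 was higher, at 214, 213 and 211 CPM in control and 225, 229 and 225 CPM in SMIP34 libraries (log2 fold change 0.09 ± 0.03, SE; edgeR adjusted p = 0.0123), while SNHG1 did not pass the test. The difference between these neighbours was not tested. ZBTB37, which starts 368 bases from GAS5 on the opposite strand, was at 1.39 to 2.41 CPM and was not called (edgeR adjusted p = 0.897). LOC100506046, FAM69B and TRNAU1AP, which overlap exons of GAS5, SNHG7 and SNHG12 on the opposite strand, were not called either, and C8orf45, opposite SNHG6, was at or below 0.0962 CPM in each library. Reads were counted by strand, so these opposite genes have counts of their own.

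Per kilobase of exon, a level that allows genes to be compared, SNHG5, SNHG6 and GAS5 were highest, with control means of 156 ± 18.2, 132 ± 8.15 and 126 ± 5.06 CPM per kilobase (SD, n = 3). The control ranges of SNHG5 and SNHG6 overlapped, as did those of SNHG6 and GAS5. SNHG8 followed at 70.3 ± 4.89. SNHG1 and SNHG7 came next, at 37.2 ± 1.11 and 30.2 ± 2.22, and their control ranges of 36.0 to 38.2 and 28.7 to 32.7 did not overlap. SNHG3 and SNHG12 were lowest, at 11.1 ± 0.465 and 10.4 ± 0.742, and their control ranges overlapped. In SMIP34 libraries SNHG5, SNHG6 and GAS5 were at 135 ± 7.16, 115 ± 5.53 and 131 ± 3.77, and SNHG12 was at 13.1 ± 1.36 against 10.7 ± 0.783 for SNHG3. There the range of SNHG6, 110 to 121, lay below that of GAS5, 126 to 134, and the range of SNHG12, 11.8 to 14.5, lay above that of SNHG3, 9.99 to 11.5.

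Ratios between members within a library do not depend on how libraries are scaled, and 3 were computed after the values above were seen. For 1 read of SNHG8 there were 0.178, 0.173 and 0.178 reads of SNHG12 in control and 0.305, 0.248 and 0.256 in SMIP34 libraries. The 3 SMIP34 libraries lay above all controls. For 1 read of SNHG8 there were 1.76, 1.88 and 1.87 reads of GAS5 in control and 2.37, 2.28 and 2.24 in SMIP34 libraries, again without overlap. The ratio of GAS5 to SNHG5 went from 1.02 ± 0.0815 in control to 1.21 ± 0.0553 in SMIP34 libraries (SD, n = 3), with no overlap between the groups. These pairs were picked for their difference and carry no test.

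The members also varied together within the control group. Control replicate 3 was the lowest control in 8 of 8 members and control replicate 1 the highest in 7 of 8. Over all genes tested, control replicate 3 was the lowest control in 35.5% and control replicate 1 the highest in 31.6%. Relative to the control mean, the members had median log2 deviations of 0.07, 0.01 and -0.07 in controls 1, 2 and 3 and of -0.08, -0.17 and -0.07 in SMIP34 libraries 1, 2 and 3. By this measure control replicate 3 lay between SMIP34 replicates 1 and 3. The ribosomal protein hosts had medians of 0.02, 0.05 and -0.07 in control and -0.15, -0.18 and -0.14 in SMIP34 libraries, in which each SMIP34 library was below control replicate 3. Leaving control replicate 3 out gave the members a median of -0.14, against -0.11 with all libraries. Without control replicate 1 the median was -0.075, and without control replicate 2 it was -0.077.

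**Figure D2:**
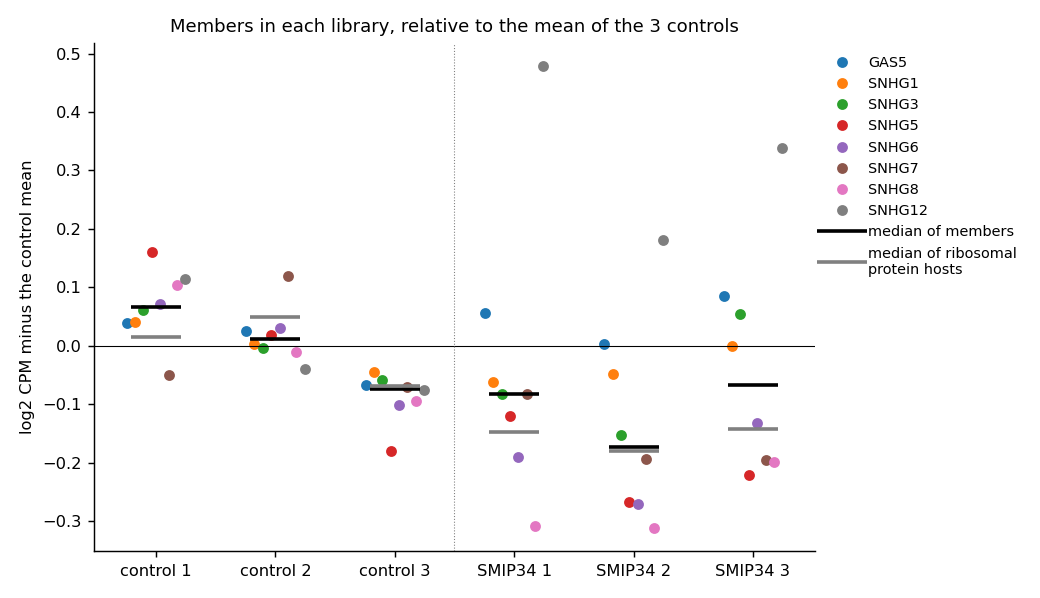
Log2 CPM of each member (coloured points) minus its mean over the 3 controls, by library, with dashes for the median of the 8 members (black) and of the ribosomal protein hosts (grey). The members spread from -0.31 (SNHG8) to 0.48 (SNHG12) in SMIP34 libraries, and their median in control replicate 3 (-0.073) lies between those in SMIP34 replicates 1 (-0.082) and 3 (-0.066).

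Fold changes in these libraries moved with the length of the exons, and most members are short. All genes tested were ordered by exon length and cut into 10 classes of equal size. The class with the shortest exons, up to 1206 bases, had a median log2 fold change of -0.10, and 32.8% of its genes were called lower and 4.10% higher. The class with the longest exons, from 6891 bases, had a median of 0.12, and 5.97% were called lower and 39.6% higher. GAS5, SNHG1, SNHG5, SNHG6, SNHG8 and SNHG12 were all in the shortest class, where SNHG5, SNHG6 and SNHG8 lay below its median and GAS5, SNHG1 and SNHG12 above it. SNHG3 and SNHG7 were in classes 4 and 5, with medians of -0.03 and -0.01. A fit with offsets for exon length called 14.9% of all genes tested lower and 16.6% higher. In this fit SNHG8, at -0.15, and SNHG7, at -0.14, remained lower, SNHG12, at 0.45, and GAS5, at 0.17, were higher, and the median of the members was -0.05. With offsets for exon length and GC content together, SNHG5, SNHG6, SNHG7 and SNHG8 were called lower, at -0.14, -0.13, -0.13 and -0.17, and GAS5 and SNHG12 higher. That fit, on the 13278 genes with a GC content, called 15.7% of them lower and 17.2% higher. The part that length had in the changes of the members was not tested beyond these fits.

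**Figure D3:**
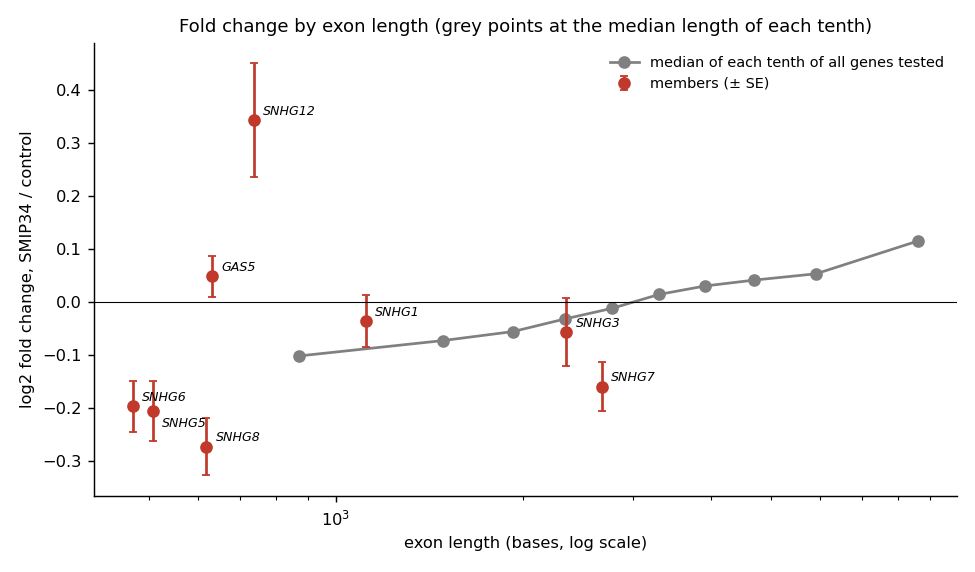
Log2 fold change (SMIP34 over control) against exon length in bases (log axis) for the 8 members (red, ± SE), with the median of each of 10 length classes of all genes tested in grey. The grey medians go from -0.10 to 0.12, and of the 6 members in the shortest class 3 lie above its median and 3 below.

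**Figure D4:**
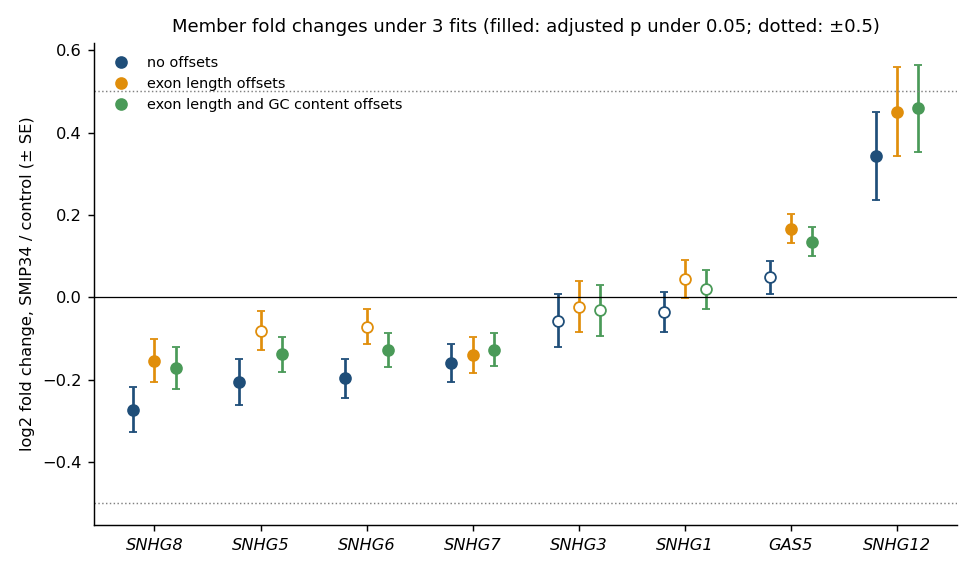
Log2 fold change ± SE of each member in the fit without offsets (blue), with exon length offsets (orange) and with exon length and GC content offsets (green), filled where the adjusted p was under 0.05, with dotted lines at ±0.5. SNHG7, SNHG8 and SNHG12 are filled in all 3 fits, GAS5 in the 2 with offsets, and no member is past a dotted line.

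The snoRNA rows within the members held few reads. No row had more than 82 counts in a library, and the 28 rows together had 389, 445 and 379 counts in control and 419, 387 and 491 in SMIP34 libraries. Of the 28, 14 passed the filter on low counts, 5 with a log2 fold change below 0 and 9 above. By edgeR 0 were called and 0 had an unadjusted p under 0.05, with a lowest adjusted p of 0.292, and DESeq2 called 0 as well. SNORD25 in SNHG1 had 50, 73 and 42 counts in control and 58, 48 and 82 in SMIP34 libraries. SNORA61 in SNHG12, whose host was higher, had 42, 36 and 25 counts in control and 34, 37 and 49 in SMIP34 libraries (log2 fold change 0.15 ± 0.24, SE). A change of the size seen in the hosts was not detectable at this depth. Summed over its rows, GAS5 held 8.32 ± 0.573 CPM of snoRNA reads in control and 7.79 ± 0.786 in SMIP34 libraries (SD, n = 3), which per kilobase was 9.49% of the level of its exons. SNHG1 held 7.41 ± 0.387 and 7.98 ± 1.30 CPM, or 33.9% of the level of its exons per kilobase, and SNHG12 held 2.37 ± 0.447 and 2.61 ± 0.177 CPM, or 44.5%. Reads of a mature snoRNA and of an unspliced intron cannot be told apart in these rows.

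The other hosts and the pathway genes give the setting of these values. For the edgeR counts that follow, the shares over all genes tested were 17.2% lower and 17.4% higher. With exon length offsets they were 14.9% and 16.6%. Other non-coding hosts named from general knowledge, 12 of which were tested, had a median log2 fold change of -0.16, with 10 below 0 and 2 above. By edgeR 1 was called lower and 0 higher, with 3 and 1 at an unadjusted p under 0.05, and DESeq2 also called 1 lower and 0 higher. With exon length offsets the median was -0.08, with 1 called lower and 1 higher. Several of the 12 had few reads, such as C6orf48 (1.49 CPM in control, SE 0.27) and SNHG9 (3.38 CPM, SE 0.18). Changes of the size seen in the members could be missed in these. Others were abundant, such as ZNFX1-AS1 (93.5 CPM, SE 0.04), which was not called. Non-coding hosts found by the position of snoRNA rows, 16 outside the members and partly the same genes, had a median of -0.09. Of these, 2 were called lower, KIAA0114 and the abundant NCRNA00188 (-0.15 ± 0.03, SE; edgeR adjusted p = 0.00026). The 16 include SENP3-EIF4A1 (-0.02) and EEF1E1-MUTED (-0.08), whose snoRNA rows also lie within the protein-coding hosts EIF4A1 and EEF1E1. Their values may therefore not be those of non-coding RNA. KIAA0114, the DANCR transcript and host of SNORA26, was lower (log2 fold change -0.30 ± 0.06, SE; edgeR adjusted p = 0.000124). NCRNA00338, now SNHG20, had the lowest value, -0.38 ± 0.17, and NCRNA00219, now EPB41L4A-AS1, the highest, 0.22 ± 0.09, and neither passed the test (edgeR adjusted p = 0.0868 and 0.0629).

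Most genes of ribosomal proteins were lower, whether or not they held a snoRNA row. Of 27 such hosts, found by the position of snoRNA rows inside them, 26 were called lower and 0 higher by edgeR (27 and 0 at an unadjusted p under 0.05) and 25 and 0 by DESeq2, with a median of -0.16 and a range from -0.22 in RPL12 to -0.06 in RPL17. With exon length offsets 14 of the 27 were called lower, with a median of -0.06. Of 59 ribosomal protein genes without such a row, 50 were called lower, with a median of -0.17, and 31 with exon length offsets, with a median of -0.07. Protein-coding hosts of other kinds, 95 of which were tested, had a median of 0.03, with 17 called lower and 25 higher. They ranged from -0.47 in COBLL1 to 0.38 in KIAA0907. With exon length offsets 20 were called lower and 26 higher, with a median of 0.02. The members, with 4 lower and 1 higher of 8, lay between these classes, and the differences between classes were not tested. Of 26 other TOP mRNAs (translation factors and similar genes), 14 were called lower and 0 higher by edgeR (15 and 1 at an unadjusted p under 0.05). DESeq2 called 14 and 0. The median was -0.08, with a range from -0.26 in EEF1B2, an elongation factor subunit, to 0.06 in IPO7, an import receptor. With exon length offsets 10 were called lower and 1 higher, with a median of -0.05. The lists are not separate: EEF1B2 and IPO7 are also among the protein-coding hosts, and FAU is also among the ribosomal protein genes.

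**Figure D5:**
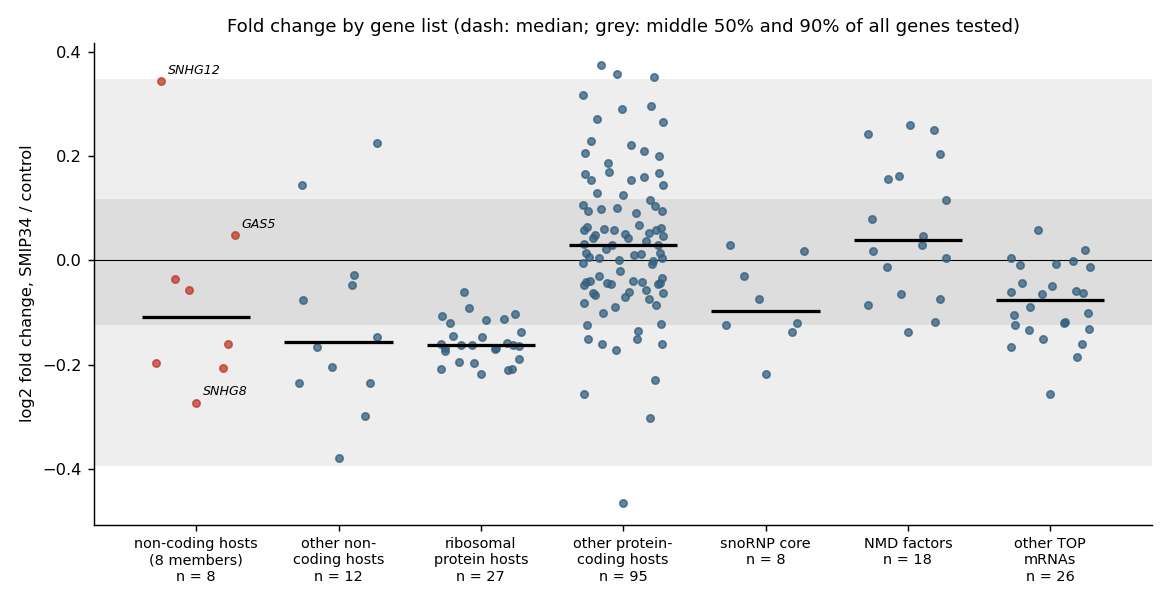
Log2 fold change (SMIP34 over control) of each gene tested, by list, with the median as a dash and the middle 50% and 90% of all genes tested as grey bands. The 27 ribosomal protein hosts lie in a narrow band around -0.16, while the 8 members spread from -0.27 (SNHG8) to 0.34 (SNHG12).

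The genes of the proteins that bind snoRNAs were examined too, and their values are levels of RNA, not of protein. Of the 8 genes of core proteins, the RNAs of the 4 for the H/ACA particle were all lower. They were NHP2 (-0.22 ± 0.03, SE, edgeR adjusted p = 6.71e-06), DKC1, its pseudouridine synthase (-0.12, 0.00491), NOP10 (-0.12, 0.023) and GAR1 (-0.14, 0.0475). The C/D particle's methyltransferase FBL (0.02) and its partners NOP56 (-0.03) and NOP58 (0.03) did not pass the test (edgeR adjusted p = 0.665, 0.529 and 0.519), nor did NHP2L1, now SNU13 (-0.08; 0.109). With exon length offsets DKC1 (-0.10) and NHP2 (-0.12) were lower, FBL (0.10) and NOP58 (0.08) were higher and the other 4 were not called. DESeq2 called 2 of the 8 lower. Of 15 assembly factors, PIH1D1 (-0.13) and RUVBL2 (-0.08) were lower and TCOF1 (0.20) and SHQ1 (0.18) higher. In the fit with exon length offsets 0 of the 15 were called lower and 4 higher.

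Nonsense-mediated decay removes the exonic RNA of several of these hosts. Of its 18 factors tested, 7 (38.9%) were higher and 1 (5.6%) lower, where 17.4% and 17.2% of all genes tested were. Among them were the helicase UPF1 (0.16 ± 0.03, SE; edgeR adjusted p = 0.00045), UPF3B, the highest (0.26 ± 0.07; 0.00361), and RBM8A of the exon junction complex, the lowest (-0.14 ± 0.04; 0.00375). The counts were 6 higher and 2 lower with exon length offsets. Of 17 regulators of TOP mRNAs, 6 (35.3%) were higher and 2 (11.8%) lower, and 5 higher and 3 lower with exon length offsets. Both lists are of long genes, with median exon lengths of 4276 bases (decay factors) and 5632 bases (TOP regulators). In the length classes that hold these medians, 20.7% and 29.7% of all genes were called higher. The part of length in these counts was not tested beyond the offsets. LARP1, which binds the TOP tract, did not pass the test (0.004 ± 0.03, SE; edgeR adjusted p = 0.915), and was lower with exon length offsets (-0.06; adjusted p = 0.0492). LARP1B, its paralogue, was the highest (0.29 ± 0.06; 0.000205), and EIF4EBP1, a repressor of cap-dependent translation, was the lowest (-0.24 ± 0.03; 4.56e-06). These are levels of RNA and say nothing of protein or activity.

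The directions of the members are set beside their start sequences here, and a link between them was not tested. SNHG6, which was called lower, was not scanned. Of the 3 members with a run of at least 5 pyrimidines at the GENCODE start shown, SNHG12 was higher, SNHG8 was lower and GAS5 did not pass the test. Of the 4 without one at the GENCODE start shown, SNHG5 and SNHG7 were lower and SNHG1 and SNHG3 did not pass. At the starts of the count tables the split was different. There SNHG5 had a run of 5, while the runs of GAS5, SNHG8 and SNHG12 were 0, 1 and 3, and no other member scanned reached 5. Ribosomal protein genes with and without such a run at the annotated start had medians of -0.17 and -0.16. Over all genes tested the medians were -0.03 with a run and 0.004 without. Since a small shift of the start decides whether a run is seen, these medians cannot separate genes with and without a TOP tract.

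Finally, genes whose levels followed those of GAS5 over the 6 libraries were listed from the 9909 other genes whose mean CPM reached 10. The 5 most alike, by Pearson's r of log2 CPM, were UCHL3 (0.987), RPS27L (0.984), PDIA5 (0.978), VPS54 (0.977) and MED21 (0.971), and no member was among them. UCHL3, a ubiquitin hydrolase, was at 28.6 ± 2.76 CPM in control and at 30.6 ± 2.23 CPM in SMIP34 libraries (SD, n = 3), with its lowest value, 25.5 CPM, in control replicate 3, where GAS5 was lowest too. All 5 had log2 fold changes from 0.03 to 0.10 and none was called. Such values of r arise from the choice of the highest among many genes over 6 libraries that share their scaling, and they describe these libraries only.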

How the data were processed

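RNA-seq was done on 3 control and 3 SMIP34-treated libraries of HEC-1-A cells, which the labels assign to groups. The deposited values are estimated counts per gene. Per the file headers, the authors ran featureCounts on UCSC hg19 exons by strand, with reads that map to several places or overlap several genes set to be counted as fractions (genes sharing exons, such as SNHG3 and RCC1, nevertheless had mostly whole counts). The submitters' processing notes name HISAT2, SAMtools, bcl2fastq and featureCounts, while the paper's methods name tophat2 and HTSeq. Kits of different makers are named for the libraries. Of the 48 values of the members, 5 were fractional, and values were rounded for the tests.

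Genes passing filterByExpr were scaled by TMM and compared with edgeR 4.0.16 in R 4.3.3 (quasi-likelihood test, legacy set to false). Standard errors were derived from the F statistic, and log2 CPM used a prior count of 2. Gene models of the count tables gave loci and lengths, and GENCODE v44 lifted to GRCh37 gave starts. Symbols in lists were matched to older symbols through RefSeq. The fits were also run on simulated counts, in which a small set of genes changed by known folds. No trend with exon length was simulated, so that run cannot check the calls that depend on length offsets. Alternatives were DESeq2 1.42.0, limma 3.58.1 (voom), other scalings and filters, the legacy method, offsets from a loess fit (span 0.3) on exon length, a replicate block and leaving out each library. Offsets with GC content were chosen after seeing the data.

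The members and gene lists were chosen with earlier results of these data known. Genes were named by a rule: all members, the highest, lowest and defining genes of each list, neighbours sharing exons or starting within 5000 bases, snoRNAs inside members, and the 5 genes most correlated with GAS5. A pseudogene was dropped from the list of other non-coding hosts, and other genes named were chosen after their values were seen.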

Additional observations from a re-analysis of the deposited data

How the results depend on the processing

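In the 12 alternative analyses that kept all libraries, SNHG3, SNHG7, SNHG8 and SNHG12 kept direction and side of the threshold in all 12. With exon length offsets, SNHG5 (-0.081; adjusted p = 0.211) and SNHG6 (-0.072; 0.203) lost their call, GAS5 (0.166; 0.000466) gained one, SNHG1 turned to 0.044, and 2 members were lower and 2 higher in place of 4 and 1. With exon length and GC content offsets, chosen after seeing the data, GAS5 was called (0.135), SNHG1 turned to 0.019 and 2 members were higher. DESeq2 did not call SNHG5 (-0.207; adjusted p = 0.131). The cause of that difference was not tested. The median of the members stayed below 0 throughout, between -0.12 and -0.05 over these 12, and no member passed the fold limit of 0.5, or of 1 in the fit without offsets.

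Leaving out 1 library at a time, the log2 fold change ranged from 0.018 to 0.071 for GAS5, -0.056 to -0.015 for SNHG1, -0.116 to -0.013 for SNHG3, -0.288 to -0.124 for SNHG5, -0.244 to -0.162 for SNHG6, -0.199 to -0.095 for SNHG7, -0.316 to -0.22 for SNHG8 and 0.266 to 0.416 for SNHG12. The number of members called lower was 3 to 4 and the number called higher 0 to 1. Calls were lost for SNHG5 without control replicate 1, for SNHG7 and SNHG12 without control replicate 2 and for SNHG12 without SMIP34 replicate 1. For libraries with the same replicate number, the deviations from the group means correlated at -0.028, 0.0334 and -0.0111. No pairing was seen by this measure, which cannot decide whether such libraries shared a culture or a preparation. With the replicate number as a block, SNHG8 was at -0.27 (adjusted p = 0.000464) and SNHG12 at 0.34 (0.0145), and again 4 members were lower and 1 higher. At 151 to 235 counts, depth limits SNHG12 most among the members, and the snoRNA rows more.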
